A study of Mus musculus with 18 samples.

Results

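The core circadian clock genes measured here were *Arntl*, *Clock*, *Per2*, *Per3*, *Cry1*, *Cry2*, *Ciart*, *Nr1d1*, *Nr1d2* and *Dbp*. They were chosen by gene symbol from a table of RNA-seq counts, and all 10 were found among its 52636 genes. The counts came from 18 libraries of mouse retinal pigment epithelium (RPE), the pigmented cell layer behind the retina, with 3 libraries in each of 6 groups. The C57BL/6 mice were either left uninjected or given an AAV8 vector under the retina at birth, and the RPE was taken at postnatal day 14. The vectors carried GFP, nSREBP2 (the nuclear, active form of the sterol regulator SREBP2), a control hairpin (named Laczsh in the labels, ctrl sh here), or either of a pair of hairpins against *Lrp2* (*Lrp2* sh1 and *Lrp2* sh2). *Lrp2* encodes megalin, a large endocytic receptor. All vectors used the promoter of *Best1*, which is active in the RPE, so the injected groups shared an AAV8 injection that the uninjected mice did not have. Each library came from the pooled eyes of 1 mouse, and the RPE was loosened from the eyecup with papain after the retina and optic nerve had been removed. The mice lived in a light and dark cycle, and the hour of collection is not given in the sources used here. The question put to these genes was whether the groups stood at like or unlike states of the clock. The labels number the libraries 1, 2 and 8 (uninjected), 3, 4 and 9 (nSREBP2), 10 to 12 (*Lrp2* sh1), 13 to 15 (ctrl sh), 16 to 18 (GFP) and 19 to 21 (*Lrp2* sh2). What these numbers mark is not given. The nSREBP2 numbers all lie below the GFP numbers, so whatever they mark cannot be told apart from the vector in that comparison. An unequal hour of collection and an effect of a vector cannot be told apart in these data.

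The circadian clock of a mammalian cell is a loop of transcription. ARNTL (also called BMAL1) and CLOCK pair up and bind E-boxes, and they switch on the *Per*, *Cry*, *Nr1d*, *Ciart* and *Dbp* genes. PER and CRY proteins then enter the nucleus and hold the pair back, and CIART (also called CHRONO) is a further repressor of it. NR1D1 and NR1D2 (REV-ERB alpha and beta) repress *Arntl* through a ROR element, which ROR proteins use to activate it. DBP is an output factor that binds D-boxes together with TEF and HLF, and NFIL3 competes for the same sites. In most tissues with a running clock, *Arntl* RNA peaks when *Dbp*, *Per* and *Nr1d1* RNA are low. The RPE has such a clock of its own, and the shedding and engulfment of photoreceptor tips follow a daily rhythm.

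Between 8921885 and 13696934 reads were counted on genes per library, and the 10 members had from 29 (*Ciart*, nSREBP2 replicate 1) to 2832 (*Nr1d2*, GFP replicate 3) counts in a library. *Srebf2*, the gene of SREBP2, had 217 ± 15.9 CPM (SD, n = 3) with nSREBP2 and 101 ± 15.9 CPM (SD, n = 3) with GFP, where CPM are counts scaled to library size. *Lrp2* was lower in each of the 3 comparisons of the study, with a log2FC of −2.18 for nSREBP2 against GFP, and of −1.68 (sh1) and −1.60 (sh2) for the hairpins against ctrl sh. All 10 RPE markers, among them *Rpe65* and *Best1*, were detected in every group. Markers of rods, endothelium, fibroblasts and macrophages were detected in every group too, so the libraries held RNA of neighboring cells. Counts of Y-linked genes marked 6 libraries as male, namely uninjected replicate 3, all of nSREBP2, and *Lrp2* sh2 replicates 2 and 3. The GFP libraries had none, so sex and nSREBP2 cannot be told apart by comparing these groups alone.

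Levels between genes were compared per length, as counts divided by exon length and library size (RPKM) in uninjected RPE. *Nr1d2* stood highest with 31.8 ± 4.97 RPKM (SD, n = 3), followed by *Nr1d1* with 23.7 ± 3.76 RPKM and *Dbp* with 18.04 ± 4.15 RPKM. *Per3*, *Cry2* and *Clock* had 12.9 ± 1.65, 11.98 ± 1.01 and 11.9 ± 0.414 RPKM, respectively. *Cry1* had 8.55 ± 1.03 RPKM, *Per2* 7.91 ± 0.21 RPKM, *Arntl* 4.48 ± 0.9 RPKM and *Ciart* 3.098 ± 0.565 RPKM. The nuclear receptors that repress *Arntl* were therefore among the most abundant members, and *Arntl* and *Ciart* were the least abundant. *Per3*, *Cry2* and *Clock* did not differ in level beyond their spread, nor did *Cry1* and *Per2*. *Nr1d1* and *Dbp* overlapped in their SD, but both rose from replicate 1 to 3. Within each uninjected library *Nr1d1* was the higher, by 0.589, 0.375 and 0.368 in log2 CPM, at like exon lengths. In the GENCODE M21 annotation, 539 of the 2993 exon bases of *Dbp* lie opposite to *Sphk2*, 263 of the 3077 of *Nr1d1* opposite to *Thra*, 295 of the 6320 of *Cry2* opposite to *D930015M05Rik* and 33 of the 7523 of *Arntl* opposite to *Gm45355*. Whether the counting used the strand is not given in the sources used here, so these 4 genes may hold reads of their partners.

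Within a group, 8 of the 10 members varied more between mice than the median gene of like abundance did. The pooled SD of log2 CPM within groups was 0.20 for *Per2*, against a median of 0.12 over the 2565 genes within 0.5 of its mean log2 CPM. It was 0.19 for *Arntl* (0.13 for 2518 genes of like level), 0.18 for *Dbp* (0.11 for 2548 genes) and 0.17 for *Nr1d1* (0.10 for 2335 genes). *Clock* (0.07 against 0.09 for 1241 genes) and *Ciart* (0.26 against 0.27 for 2032 genes) were the members below the median. Between the lowest and the highest of the 18 libraries, *Ciart* ranged 3.04-fold, *Per2* 2.24-fold and *Dbp* 2.11-fold. *Clock* spanned the least, 1.34-fold.

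Promoter letters that match elements of the loop are shown for 5 members, as a description of where such matches lie. RefSeq windows of GRCm38.p6, from 250 bases before to 50 bases after a transcript start, were matched by symbol for 9 of the 10 members, not *Per2*. The E-box CACGTG, its variant CACGTT, the D-box TTATGTAA or TTACGTAA, and the ROR element TAGGTCA were searched on each strand, and the matches in the windows of the members did not overlap each other. Capitals mark the match, and every stretch reads 5′ to 3′ on the strand of the gene. The *Ciart* stretch is from chr3:95882255-95882356 (minus strand, bases −128 to −27 from the start) and holds 3 E-boxes. The *Cry1* stretch is from chr10:85185097-85185126 (minus strand, bases −72 to −43) and holds an E-box. The *Nr1d1* stretch is from chr11:98775388-98775417 (minus strand, bases −40 to −11) and holds the variant on the reverse strand. The *Per3* stretch is from chr4:151044804-151044882 (minus strand, bases −217 to −139) and holds 2 D-boxes, and the *Arntl* stretch is from chr7:113207530-113207558 (plus strand, bases 20 to 48 after the start, in the second of its 2 windows) and holds the ROR element.
Ciart: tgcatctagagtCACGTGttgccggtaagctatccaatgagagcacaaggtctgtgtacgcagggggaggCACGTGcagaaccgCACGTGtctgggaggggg
Cry1: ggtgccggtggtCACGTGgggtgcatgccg
Nr1d1: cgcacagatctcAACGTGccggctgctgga
Per3: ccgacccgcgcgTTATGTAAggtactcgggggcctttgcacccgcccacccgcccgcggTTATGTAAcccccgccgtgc
Arntl: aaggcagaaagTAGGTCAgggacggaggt

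Of the 9 members with a window, *Ciart* and *Cry1* held the E-box in at least 1 window, as did 8.09% of the 27025 genes with a window (7.15% of all 32851 windows). *Cry1*, *Cry2* and *Nr1d1* held the variant CACGTT (5.44% of genes), *Per3* the D-box (1.23%) and *Arntl* the ROR element (2.97%). *Clock*, *Nr1d2* and *Dbp* held none of these letters in their windows. A match of letters is no measurement of binding.

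**Figure D1:**
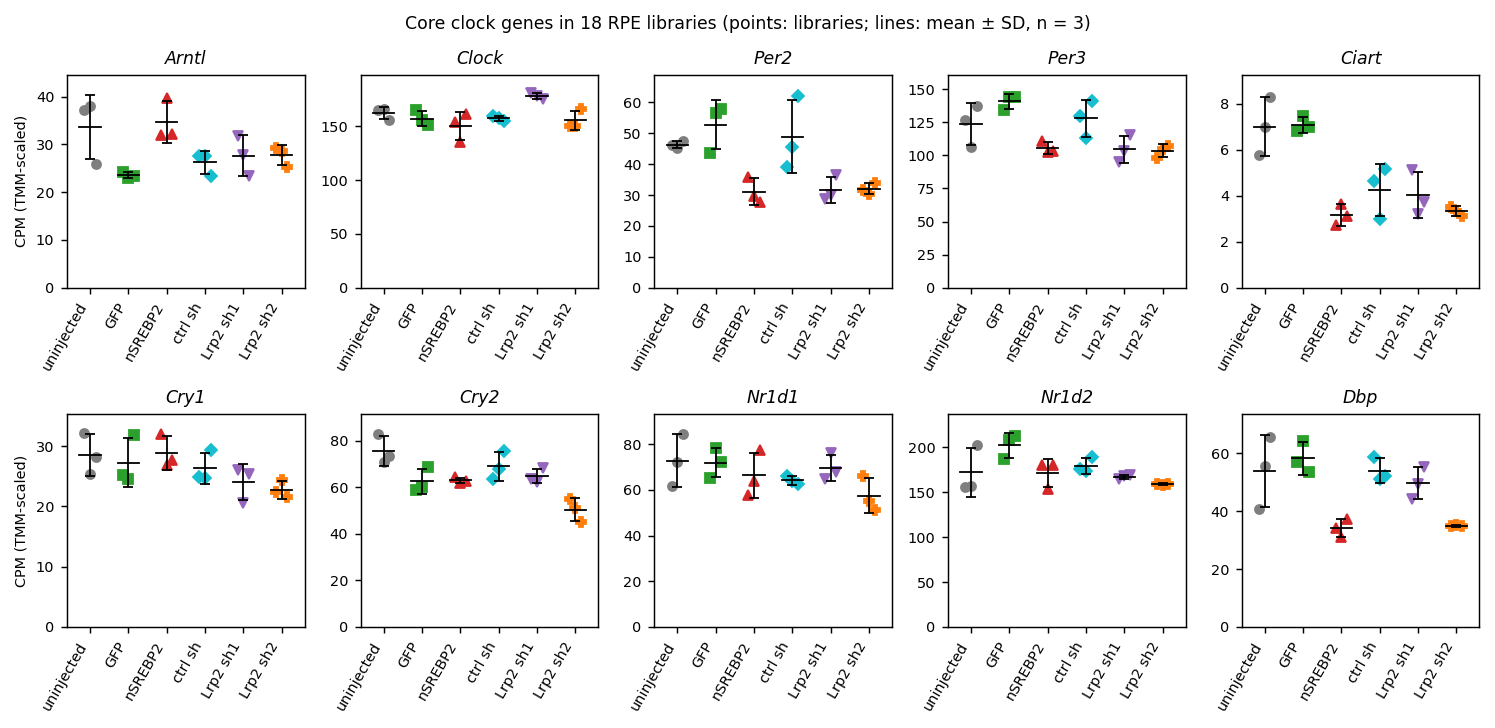
CPM (counts scaled to library size with TMM factors) of the 10 core clock genes in each library, with 1 panel per gene and 1 column per group. Each point is a library, the long bar is the group mean and the error bars are the SD (n = 3). *Dbp*, *Per2*, *Per3* and *Ciart* lie lower with nSREBP2 than with GFP in every library, and *Arntl* lies higher.

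In nSREBP2 compared with GFP, 5 of the 10 members passed the test. The output factor *Dbp* and the repressors *Per2*, *Per3* and *Ciart* were lower with nSREBP2, and the activator *Arntl* was higher. A gene passed at an adjusted *P* under 0.05 from edgeR's quasi-likelihood test with Benjamini-Hochberg adjustment over all genes, and 21% of the 17927 genes tested did so (12.6% higher and 8.47% lower). The median log2FC of the 10 members was −0.18, and that of all genes was −0.02. With the limit of the study added, an absolute log2FC above 1, *Ciart* alone passed, as did 6.67% of all genes. RNA of whole RPE preparations was measured, so fewer cells of a type and less RNA per cell cannot be told apart.

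*Arntl* (ENSMUSG00000055116.8, chromosome 7 of GRCm38 from 113207465 to 113314126, plus strand) encodes the activator that CLOCK pairs with. Values are given for replicates 1, 2 and 3 in turn. *Arntl* had 31.97, 39.7 and 32.3 CPM with nSREBP2 and 24.3, 22.98 and 23.3 CPM with GFP. Every nSREBP2 library was above every GFP library, with a log2FC of 0.56 (adjusted *P* = 0.00517, edgeR, SE 0.11). Its partner *Clock* had 154, 136 and 161 CPM with nSREBP2 and 165, 156 and 151 CPM with GFP, and these ranges overlapped. The log2FC of *Clock* was −0.07 (adjusted *P* = 0.581, edgeR, SE 0.08), with a 95% confidence interval of −0.24 to 0.10.

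Among the repressors, *Per2* (ENSMUSG00000055866.9, chromosome 1 from 91415982 to 91459324, minus strand) had 35.9, 29.7 and 27.8 CPM with nSREBP2 and 43.7, 56.7 and 57.9 CPM with GFP. *Per3* (ENSMUSG00000028957.12, chromosome 4 from 151003652 to 151044665, minus strand) had 111, 103 and 103 CPM against 134, 144 and 144 CPM. *Ciart* (ENSMUSG00000038550.10, chromosome 3 from 95878503 to 95882251, minus strand) had 2.73, 3.66 and 3.11 CPM against 6.79, 7.46 and 6.98 CPM. None of these 3 genes had an nSREBP2 library that reached the GFP range. The log2FC was −0.77 (adjusted *P* = 0.00223, edgeR, SE 0.13) for *Per2*, −0.42 (adjusted *P* = 0.00154, edgeR, SE 0.06) for *Per3* and −1.16 (adjusted *P* = 0.00259, edgeR, SE 0.20) for *Ciart*. *Ciart* is the least abundant member, with 29 to 93 counts per library. The cryptochromes, which are the other arm of the repressor complex, did not pass. *Cry1* (ENSMUSG00000020038.10, chromosome 10 from 85131700 to 85185064, minus strand) had a log2FC of 0.08 (95% confidence interval −0.19 to 0.35, adjusted *P* = 0.706, edgeR). *Cry2* (ENSMUSG00000068742.11, chromosome 2 from 92403646 to 92434043, minus strand) had a log2FC of 0.00 (95% confidence interval −0.16 to 0.17, adjusted *P* = 0.979, edgeR).

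The output factor *Dbp* (ENSMUSG00000059824.12, chromosome 7 from 45705088 to 45710203, plus strand) had 34.3, 31.1 and 37.2 CPM with nSREBP2 and 56.96, 64.3 and 53.4 CPM with GFP. The groups lay far apart, with a log2FC of −0.77 (adjusted *P* = 0.000361, edgeR, SE 0.09), and *Dbp* ranked 472 among the 17927 genes by *P*. The nuclear receptors had smaller log2FC, and neither passed. *Nr1d2* (ENSMUSG00000021775.11, chromosome 14 from 18204054 to 18239127, minus strand) had 181, 154 and 180.0 CPM against 187, 208 and 213 CPM. Its groups did not overlap, but its log2FC of −0.24 (adjusted *P* = 0.0597, edgeR, SE 0.08) missed the threshold. It passed without GFP replicate 1 (adjusted *P* = 0.0441), without a filter on low counts (0.0439), with at least 10 counts in every library (0.0433) and with sex as a term (0.0206, log2FC −0.44), all in edgeR, so that 6 members were then called. *Nr1d1* (ENSMUSG00000020889.11, chromosome 11 from 98767932 to 98775333, minus strand) had 57.7, 63.95 and 77.2 CPM against 65.4, 78.1 and 72.2 CPM, and its groups overlapped (log2FC −0.12, adjusted *P* = 0.503, edgeR, SE 0.11). In all, 6 of the 10 members had groups that did not overlap, 1 higher and 5 lower, against 37.5% of all genes (19.7% higher and 17.8% lower). The 5 members that passed kept doing so in all other analyses that used the adjusted *P* alone, including the omission of any library. They also passed in the fit with sex as a term. Sex did not vary within nSREBP2 or within GFP, so that term rested on the uninjected and *Lrp2* sh2 libraries. This fit cannot tell sex from nSREBP2 in these groups.

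Of the 20 other genes of the clock in a wider list, 7 passed in nSREBP2 versus GFP, against 21% of all genes. The partners of DBP at D-boxes were lower, *Tef* with a log2FC of −0.52 (adjusted *P* = 0.000839, edgeR, SE 0.07) and *Hlf* with −0.61 (adjusted *P* = 0.000634, edgeR, SE 0.08). *Tef* had 181, 163 and 162 CPM with nSREBP2 and 244, 252 and 225 CPM with GFP, and *Hlf* had 93.5, 83.8 and 92.04 CPM against 125, 135 and 148 CPM. *Usp2*, which encodes a deubiquitinase under clock control, was lower as well (log2FC −0.71, adjusted *P* = 0.00393, edgeR, SE 0.13). *Npas2*, a relative of *Clock* that can stand in for it, was higher (log2FC 0.71, adjusted *P* = 0.00319, edgeR, SE 0.12), with 13.5, 13.2 and 12.8 CPM against 8.15, 7.54 and 8.33 CPM. Higher too were *Rorb*, which encodes a ROR receptor (log2FC 0.49, adjusted *P* = 0.00511, edgeR, SE 0.10), *Bhlhe40*, which encodes the E-box repressor DEC1 (log2FC 0.50, adjusted *P* = 0.015, edgeR, SE 0.12), and *Timeless* (log2FC 0.63, adjusted *P* = 0.0223, edgeR, SE 0.16). The light-responsive repressor *Per1* had a log2FC of −0.55 (adjusted *P* = 0.0586, edgeR, SE 0.18) and did not pass, except without nSREBP2 replicate 2 (adjusted *P* = 0.0209, edgeR) and in 2 of the other analyses. With sex as a term, *Rorb*, *Bhlhe40*, *Timeless* and *Usp2* no longer passed, with log2FC of 0.52, 0.37, 0.44 and −0.57 and larger SE (0.40, 0.16, 0.23 and 0.25). *Rorb* also lost its call in the fit of all 18 libraries (log2FC 0.49, SE 0.27, adjusted *P* = 0.232, edgeR). *Bhlhe40* also lost its call without nSREBP2 replicate 1 or GFP replicate 2, as did *Timeless* without nSREBP2 replicate 3 or GFP replicate 1, with adjusted *P* of at most 0.0709 and 0.0858 (edgeR).

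Markers of other cells differed between nSREBP2 and GFP as well. All 7 fibroblast markers passed as higher with nSREBP2, with a summed level of 70910 to 86250 CPM against 34280 to 43640 CPM. Of the macrophage markers, 7 of 8 were higher (585 to 635 CPM summed, against 344 to 408 CPM). Of the rod markers, 4 of 16 were higher (355 to 508 CPM, against 53.0 to 383 CPM), and 5 of 8 endothelial markers were lower (1919 to 2165 CPM, against 2303 to 2930 CPM). Of the RPE markers, 2 of 10 were higher and 2 were lower (4727 to 6284 CPM, against 5298 to 5650 CPM). By the same test, 12.6% of all genes were higher and 8.47% were lower. No marker of these lists was at 0 in all libraries of a group. Their part in the clock values was not tested.

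**Figure D2:**
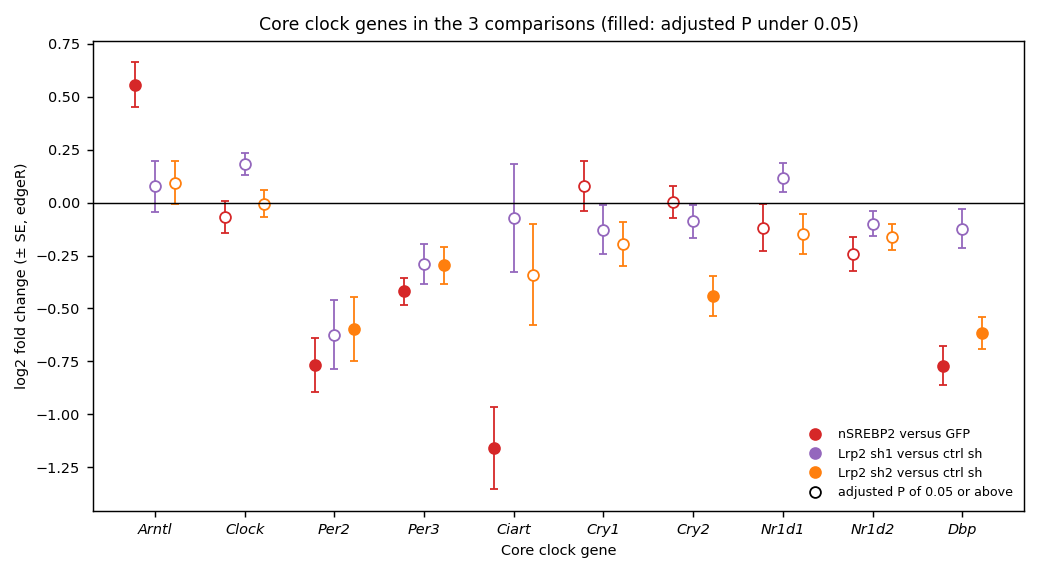
Log2 fold change (edgeR, error bars SE, 3 libraries per group) of the 10 core clock genes for nSREBP2 against GFP and for each *Lrp2* hairpin against ctrl sh. Filled points have an adjusted *P* under 0.05. *Dbp* was at −0.77 for nSREBP2 and −0.62 for *Lrp2* sh2 but at −0.12 for *Lrp2* sh1, whereas *Per2* lay between −0.77 and −0.60 in all 3 comparisons.

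In *Lrp2* sh2 compared with ctrl sh, 4 of the 10 members passed the test and all 4 were lower, namely *Dbp*, *Per2*, *Per3* and *Cry2*. Of the 18089 genes tested, 18.1% passed (8.59% higher and 9.48% lower). The median log2FC of the members was −0.25, and that of all genes was 0.01. *Dbp* had 34.7, 35.4 and 34.8 CPM with *Lrp2* sh2 and 58.8, 50.99 and 52.3 CPM with ctrl sh, and its log2FC was −0.62 (adjusted *P* = 0.00066, edgeR, SE 0.07). The *Lrp2* sh2 libraries were nearly equal in *Dbp* and lay below every ctrl sh library. None of the 10 members had an absolute log2FC above 1, which 4.76% of all genes combined with an adjusted *P* under 0.05. Y-linked counts were found in *Lrp2* sh2 replicates 2 and 3 and in no ctrl sh library, so sex was unequal between these groups.

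*Per2* had 31.8, 30.4 and 33.9 CPM with *Lrp2* sh2 and 38.96, 45.7 and 62.1 CPM with ctrl sh (log2FC −0.60, adjusted *P* = 0.0233, edgeR, SE 0.15). *Per3* had 97.8, 105 and 107 CPM against 129.9, 113 and 141 CPM (log2FC −0.30, adjusted *P* = 0.0413, edgeR, SE 0.09). In both genes ctrl sh replicate 3 stood highest of its group, and the groups did not overlap. *Cry2* had 54.8, 51.3 and 45.04 CPM against 63.6, 67.8 and 75.7 CPM (log2FC −0.44, adjusted *P* = 0.0116, edgeR, SE 0.10). The *Lrp2* sh2 libraries held the 3 lowest *Cry2* values of all 18 libraries. *Per2* and *Per3* did not pass without *Lrp2* sh2 replicate 1 or without replicate 2, which left 2 calls, and *Per3* and *Cry2* did not pass without ctrl sh replicate 3, which also left 2. *Per3* was further lost without *Lrp2* sh2 replicate 3, without ctrl sh replicate 1 and with the replicate number as a block (3 calls each), and *Dbp* passed in each of these fits.

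The activators did not pass with *Lrp2* sh2. *Arntl* had 29.3, 28.7 and 25.4 CPM against 27.6, 27.6 and 23.4 CPM with ctrl sh, with a log2FC of 0.09 (95% confidence interval −0.13 to 0.32, adjusted *P* = 0.581, edgeR). *Clock* had a log2FC of −0.01 (95% confidence interval −0.15 to 0.14, adjusted *P* = 0.966, edgeR). *Ciart* had 3.51, 3.35 and 3.097 CPM against 4.64, 2.97 and 5.14 CPM, and the low ctrl sh replicate 2 made its groups overlap (log2FC −0.34, adjusted *P* = 0.368, edgeR, SE 0.24). *Cry1* and *Nr1d2* were below ctrl sh in every library without passing (log2FC −0.20 and −0.16, adjusted *P* = 0.229 and 0.0973, edgeR), and *Nr1d1* overlapped (log2FC −0.15, adjusted *P* = 0.317, edgeR). In all, 6 members had groups that did not overlap and all 6 were lower, against 36.8% of all genes (19.6% lower).

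In the wider list, 9 of 20 genes passed in *Lrp2* sh2 versus ctrl sh, against 18.1% of all genes. The D-box factors were lower, *Tef* with a log2FC of −0.46 (adjusted *P* = 0.0013, edgeR, SE 0.06) and *Hlf* with −0.68 (adjusted *P* = 0.00137, edgeR, SE 0.10), and their competitor *Nfil3* was higher (log2FC 0.68, adjusted *P* = 0.00294, edgeR, SE 0.11). *Per1* had 107, 87.3 and 105 CPM against 159, 201 and 269 CPM and was lower (log2FC −1.06, adjusted *P* = 0.00263, edgeR, SE 0.17). *Nampt*, an enzyme of NAD synthesis, was lower (log2FC −0.42, adjusted *P* = 0.0167, edgeR). *Noct*, a rhythmic phosphatase gene, had 42.5, 42.2 and 40.4 CPM against 21.4, 22.8 and 30.3 CPM and was higher (log2FC 0.76, adjusted *P* = 0.00299, edgeR, SE 0.12). *Bhlhe40* and *Timeless* were higher as well (log2FC 0.46 and 0.44, adjusted *P* = 0.00312 and 0.0393, edgeR). *Nfil3* and *Bhlhe40* passed whichever library was left out, but each lost its call in 1 of the 13 other analyses. *Timeless* lost its call whichever of the 6 libraries was left out (adjusted *P* from 0.0508 to 0.132, edgeR), and *Nampt* lost its call without *Lrp2* sh2 replicate 2 or 3 or ctrl sh replicate 2 or 3 (adjusted *P* of at most 0.0725, edgeR). Among the markers, 14 of 16 rod genes were higher with *Lrp2* sh2 (131 to 551 CPM summed, against 49.3 to 76.3 CPM), 6 of 8 endothelial genes were lower (1673 to 1856 CPM, against 2468 to 2611 CPM) and 4 of 10 RPE genes were lower (4215 to 4754 CPM, against 6356 to 8519 CPM). Of the fibroblast genes 3 of 7, and of the macrophage genes 1 of 8, were higher, against 8.59% of all genes (9.48% were lower). The part of these cells in the clock values was not tested.

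In *Lrp2* sh1 compared with ctrl sh, none of the 10 members passed the test, against 5.33% of the 17801 genes tested. An unadjusted *P* under 0.05 (edgeR) was found for 3 members. By the rank of *Nampt*, which met that limit, at least 3292 of the 17801 genes met it too. This count is therefore no result about the members and is not to be set against the 5.33%. DESeq2 called 1 of the 3 members, *Per2*. *Per2* had 28.7, 29.9 and 36.6 CPM with *Lrp2* sh1, below every ctrl sh library, with a log2FC of −0.62 (adjusted *P* = 0.0597, edgeR, SE 0.16). *Per3* had 94.98, 103 and 116 CPM and *Clock* had 181, 178 and 176 CPM. *Clock* stood above all ctrl sh libraries (159.5, 158 and 155 CPM), and *Per3* overlapped with them. Their log2FC was 0.18 (adjusted *P* = 0.0769, edgeR, SE 0.05) for *Clock* and −0.29 (adjusted *P* = 0.117, edgeR, SE 0.10) for *Per3*. *Per2* passed without ctrl sh replicate 1 and with the replicate number as a block (1 call each), and *Per2* and *Per3* passed without a filter on low counts.

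*Dbp* had 44.2, 49.5 and 55.3 CPM with *Lrp2* sh1, which overlapped with ctrl sh (log2FC −0.12, 95% confidence interval −0.33 to 0.08, adjusted *P* = 0.516, edgeR). *Arntl* had 31.8, 27.9 and 23.4 CPM (log2FC 0.08, 95% confidence interval −0.19 to 0.35), and *Ciart* had 5.14, 3.22 and 3.74 CPM (log2FC −0.07, 95% confidence interval −0.64 to 0.50). *Ciart* had the widest interval of the 10 members. Of the other members, *Nr1d2* lay below ctrl sh in every library (log2FC −0.10, adjusted *P* = 0.381, edgeR, SE 0.06), and *Cry1*, *Cry2* and *Nr1d1* overlapped (log2FC −0.13, −0.09 and 0.12). In all, 3 members had groups that did not overlap, against 25.1% of all genes. The median log2FC of the members was −0.09, and that of all genes was −0.01.

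In the wider list, 2 of 20 genes passed with *Lrp2* sh1, against 5.33% of all genes. *Per1* had 79.7, 95.1 and 89.1 CPM against 159, 201 and 269 CPM with ctrl sh and was lower (log2FC −1.25, adjusted *P* = 0.00316, edgeR, SE 0.16), and it passed whichever of the 6 libraries was left out (log2FC −1.42 to −1.03). *Bhlhe40* was higher (log2FC 0.26, adjusted *P* = 0.0341, edgeR, SE 0.06), and its call was lost when any library of *Lrp2* sh1, or ctrl sh replicate 2 or 3, was left out (adjusted *P* of at most 0.132, edgeR). *Hlf*, *Tef* and *Noct* had log2FC of −0.33, −0.16 and −0.35 and did not pass (adjusted *P* = 0.0605, 0.228 and 0.175, edgeR), but *Hlf* passed without ctrl sh replicate 1 (adjusted *P* = 0.00144, edgeR). The rod markers had summed levels of 40.3 to 84.6 CPM with *Lrp2* sh1 and none of the 11 tested passed. Of the RPE and the macrophage markers, 1 each was lower.

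The effects were then compared with each other, since a gene past the threshold in one comparison and not in another need not differ between them. For *Dbp*, the log2FC with nSREBP2 minus that with *Lrp2* sh1 was −0.66 (SE 0.18, adjusted *P* = 0.0276, edgeR, interaction term in a fit of all 18 libraries), and for *Ciart* it was −1.10 (SE 0.31, adjusted *P* = 0.0314, edgeR). These were 2 of the 10 members, against 9.75% of the 19744 genes. In *Ciart* the control ctrl sh lay below the control GFP (log2FC −0.75, adjusted *P* = 0.127, edgeR), and nSREBP2 and *Lrp2* sh1 libraries overlapped. For *Cry2*, the log2FC with nSREBP2 minus that with *Lrp2* sh2 was 0.45 (SE 0.13, adjusted *P* = 0.044, edgeR), as 1 of the 10 members, against 5.63% of genes. For *Arntl* the difference was 0.47 from either hairpin (SE 0.19 each, adjusted *P* = 0.144 for *Lrp2* sh1 and 0.186 for *Lrp2* sh2, edgeR) and did not pass. *Per2* and *Per3*, which had negative log2FC in all 3 comparisons, showed differences of −0.15 and −0.14 from *Lrp2* sh1 and of −0.16 and −0.12 from *Lrp2* sh2 (adjusted *P* = 0.729, 0.6, 0.733 and 0.697, edgeR). None of the 3 differences passed without GFP replicate 1, GFP replicate 2, nSREBP2 replicate 1 or ctrl sh replicate 2 (count 0). The difference of *Dbp* was also lost without nSREBP2 replicate 2, ctrl sh replicate 3 or *Lrp2* sh1 replicate 2 or 3, and that of *Ciart* without nSREBP2 replicate 3 or *Lrp2* sh1 replicate 1 and with sex as a term. That of *Cry2* was further lost without nSREBP2 replicate 2 or 3, ctrl sh replicate 3 or *Lrp2* sh2 replicate 2 or 3, and with the replicate number as a block.

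Both hairpins target *Lrp2* and were compared with the same ctrl sh libraries, so their fold changes against ctrl sh are not independent. Set directly against each other, *Lrp2* sh2 was lower than *Lrp2* sh1 for *Dbp* (log2FC −0.50, adjusted *P* = 0.00218, edgeR, SE 0.08), *Cry2* (log2FC −0.36, adjusted *P* = 0.0105, edgeR, SE 0.08) and *Clock* (log2FC −0.19, adjusted *P* = 0.0439, edgeR, SE 0.06). These were 3 of the 10 members, all lower, against 22.4% of the 17975 genes tested (12.3% lower). With *Nr1d2*, 4 members had groups that did not overlap, all lower, against 39% of all genes (20.8% lower). *Lrp2* itself did not differ between the hairpins beyond its spread (29.7, 42.8 and 38.2 CPM with *Lrp2* sh1 and 37.8, 34.6 and 43.9 CPM with *Lrp2* sh2). *Per2* had a log2FC of 0.02 and *Per3* of −0.01, and both overlapped. *Nr1d1* had a log2FC of −0.27 (adjusted *P* = 0.0785, edgeR, SE 0.10). *Clock* lost its call when *Lrp2* sh2 replicate 1 or 2, or any library of *Lrp2* sh1, was left out, with 2 or 3 members then passing. With sex as a term *Dbp* alone passed. In the wider list 8 of 20 genes passed, *Noct* with the lowest adjusted *P* (log2FC 1.11, adjusted *P* = 6.96e-06, edgeR, SE 0.07). *Nampt*, *Usp2*, *Hlf* and *Tef* were lower with *Lrp2* sh2 (log2FC −0.67, −0.47, −0.36 and −0.31), *Nfil3* was higher (0.77), and so was *Csnk1d*, the gene of a kinase that acts on PER proteins (0.19). Among the markers, 14 of 16 rod, 6 of 8 macrophage and 1 of 7 fibroblast genes were higher with *Lrp2* sh2 than with *Lrp2* sh1. Lower were 7 of 8 endothelial and 5 of 10 RPE genes, beside the 22.4% of all genes that passed (12.3% lower). The part of these cells in the clock values was not tested.

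The control groups were compared to see how far these genes varied without nSREBP2 or a hairpin against *Lrp2*. The 3 comparisons share libraries with each other and with those above, so they are not independent. None of the 10 members passed in GFP versus uninjected (2.48% of 17837 genes did), in ctrl sh versus uninjected (6.49% of 17822) or in ctrl sh versus GFP (2.68% of 18018). At an unadjusted *P* under 0.05 (edgeR) there were 2, 2 and 3 members. By the ranks of *Usp2*, *Npas2* and *Bhlhe40*, which met that limit, so did at least 2549 of 17837, 4298 of 17822 and 2406 of 18018 genes, respectively. The counts are therefore no result about the members and are not to be set against the shares above. DESeq2 called none of the members in any of these comparisons. *Arntl* had 37.1, 38.02 and 25.9 CPM in uninjected RPE, 24.3, 22.98 and 23.3 CPM with GFP and 27.6, 27.6 and 23.4 CPM with ctrl sh. Uninjected replicates 1 and 2 were as high as nSREBP2 in *Arntl*, and replicate 3 was close to the vector controls. GFP lay below all uninjected libraries (log2FC −0.54, adjusted *P* = 0.0921, edgeR, SE 0.14), and the gap passed without uninjected replicate 3, where 1 member was called. In ctrl sh versus uninjected the log2FC of *Arntl* was −0.38 (adjusted *P* = 0.16, edgeR, SE 0.15), lower with ctrl sh, and the groups overlapped.

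*Ciart* lay apart in the vector controls. It had 5.75, 6.97 and 8.3 CPM in uninjected RPE, close to GFP and above every ctrl sh library (4.64, 2.97 and 5.14 CPM). The log2FC of ctrl sh was −0.74 (adjusted *P* = 0.103, edgeR, SE 0.24) against uninjected and −0.75 (adjusted *P* = 0.127, edgeR, SE 0.21) against GFP, and neither passed. *Dbp* had 40.8, 55.6 and 65.5 CPM in uninjected RPE, a range that covered the GFP and ctrl sh libraries (log2FC 0.09 and −0.02). The uninjected libraries thus spread more in *Dbp* than any injected group did. *Cry2* was lower with GFP than in uninjected RPE in every library (log2FC −0.29, adjusted *P* = 0.148, edgeR, SE 0.10). *Nr1d1* and *Nr1d2* had log2FC of −0.18 and −0.19 in ctrl sh versus GFP (adjusted *P* = 0.324 and 0.261, edgeR) with overlapping groups. Groups without overlap were seen in 2, 1 and 1 of the members in these 3 comparisons, against 25.7%, 32.2% and 19.2% of all genes.

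In the wider list, 1 of 20 genes passed in GFP versus uninjected, against 2.48% of all genes. It was *Npas2*, lower with GFP (log2FC −0.79, adjusted *P* = 0.0455, edgeR, SE 0.17). Of the fits without 1 library, *Npas2* passed only in that without uninjected replicate 3 (adjusted *P* of at most 0.189 in the other 5, edgeR). With ctrl sh, *Nfil3* and *Bhlhe40* were lower than in uninjected RPE (log2FC −0.92, adjusted *P* = 0.0096, edgeR, SE 0.13 and −0.74, adjusted *P* = 0.00922, edgeR, SE 0.10), and *Noct* was higher (log2FC 0.72, adjusted *P* = 0.0351, edgeR, SE 0.16). They were 3 of the 20 genes, against 6.49% of all genes. Without ctrl sh replicate 2 none of these 3 genes passed (adjusted *P* = 0.0546 for *Nfil3* and 0.0589 for *Bhlhe40*, edgeR), and *Noct* was also lost without ctrl sh replicate 3 or any uninjected library (adjusted *P* of at most 0.0999, edgeR). *Nfil3* had 24.6, 19.8 and 24.3 CPM in uninjected RPE and 11.3, 12.4 and 13.2 CPM with ctrl sh, and *Bhlhe40* had 288, 234 and 292 CPM against 164, 163 and 171 CPM. None of the 20 genes passed in ctrl sh versus GFP. The RPE markers moved beside these comparisons, with summed levels of 6450 to 13560 CPM in uninjected RPE, 5298 to 5650 CPM with GFP and 6356 to 8519 CPM with ctrl sh. In GFP versus uninjected, 5 of 10 RPE markers were lower and 3 of the 14 rod markers tested were higher, and their part in the clock values was not tested.

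Over all 6 groups, 8 of the 10 members differed by an F-test (edgeR, 18 libraries), against 48.7% of the 19744 genes. *Dbp* had the lowest adjusted *P* of the members (0.000152, edgeR), followed by *Per2* (0.000305) and *Ciart* (0.000325). *Cry2* (0.000825), *Per3* (0.00217) and *Arntl* (0.0146) followed. The activator *Clock* (0.0354) and the receptor *Nr1d2* (0.0391) were near the threshold. *Cry1* (0.119) and *Nr1d1* (0.142) did not pass. With 1 library left out in turn, *Arntl*, *Per2*, *Per3*, *Cry2*, *Ciart* and *Dbp* passed in all 18 fits, *Clock* in 12 and *Nr1d2* in 8. *Clock* did not pass without any 1 library of *Lrp2* sh1, nSREBP2 replicate 1, ctrl sh replicate 2 or *Lrp2* sh2 replicate 2 (adjusted *P* of at most 0.113, edgeR), and *Nr1d2* did not pass without any 1 library of either hairpin, GFP replicate 2 or 3, or ctrl sh replicate 2 or 3 (at most 0.149, edgeR).

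The order of the groups was not the same for all members. *Dbp* rose from nSREBP2 (34.2 ± 3.05 CPM, SD, n = 3) over *Lrp2* sh2 (34.98 ± 0.351), *Lrp2* sh1 (49.7 ± 5.55), uninjected (54 ± 12.4) and ctrl sh (54.03 ± 4.21) to GFP (58.2 ± 5.57), and only *Lrp2* sh2 and *Lrp2* sh1 were neighbors without overlap. *Per2* and *Per3* had nSREBP2 and both hairpins as their lowest groups and GFP as the highest. *Per2* stood at 31.1 ± 4.25 CPM (nSREBP2), 31.7 ± 4.24 CPM (*Lrp2* sh1) and 32.04 ± 1.75 CPM (*Lrp2* sh2), and at 46.3 ± 1.23 in uninjected RPE, 48.9 ± 11.9 with ctrl sh and 52.8 ± 7.85 with GFP. The step from *Lrp2* sh2 to uninjected was the gap without overlap. *Arntl* ran from GFP (23.5 ± 0.6697 CPM) over ctrl sh (26.2 ± 2.43), *Lrp2* sh1 (27.7 ± 4.195), *Lrp2* sh2 (27.8 ± 2.12) and uninjected (33.7 ± 6.77) to nSREBP2 (34.7 ± 4.399), and all neighbors overlapped.

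*Ciart* had nSREBP2 (3.17 ± 0.469 CPM), *Lrp2* sh2 (3.32 ± 0.2101), *Lrp2* sh1 (4.03 ± 0.989) and ctrl sh (4.25 ± 1.14) as an overlapping low set, below uninjected (7.004 ± 1.28) and GFP (7.08 ± 0.342). *Cry2* was lowest with *Lrp2* sh2 (50.4 ± 4.94 CPM), apart from GFP above it (62.6 ± 5.28), and highest in uninjected RPE (75.7 ± 6.38). *Clock* was flat across groups, from 150.4 ± 13.1 CPM with nSREBP2 to 163 ± 5.67 CPM in uninjected RPE, except for *Lrp2* sh1 above them (179 ± 2.77 CPM). *Nr1d1* lay between 57.4 ± 7.604 CPM with *Lrp2* sh2 and 72.8 ± 11.6 CPM in uninjected RPE, and *Cry1* between 22.8 ± 1.47 and 28.9 ± 2.77 CPM, with overlap between all neighbors. *Nr1d2* was lowest with *Lrp2* sh2 (159 ± 0.869 CPM) and highest with GFP (202 ± 13.8 CPM).

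**Figure D3:**
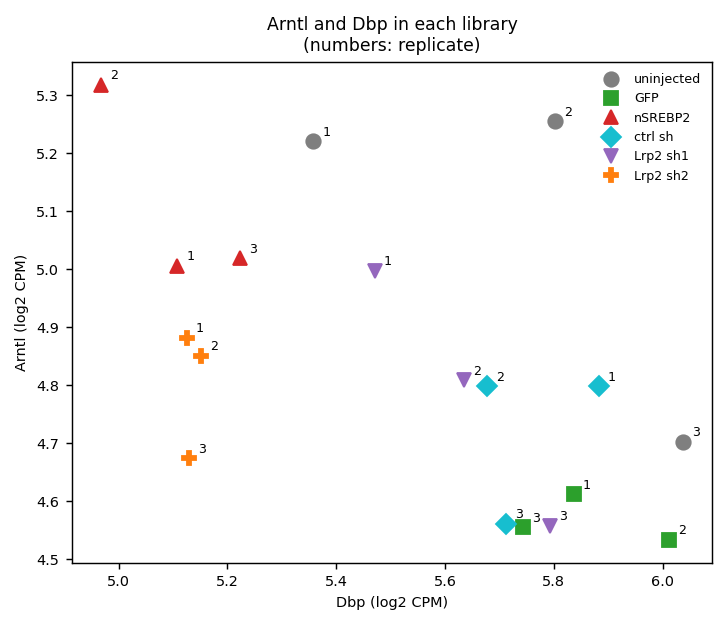
Log2 CPM of *Arntl* (vertical axis) against log2 CPM of *Dbp* (horizontal axis) in each of the 18 libraries, with replicate numbers beside the points and groups by color and shape. The GFP libraries lie at the lower right, the nSREBP2 libraries at the upper left, and the uninjected libraries are spread across both.

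The difference of log2 CPM between *Arntl*, which is high in one phase of the clock, and *Dbp*, which is high in the opposite phase, was used to place each library. It was −1.48 to −1.19 with GFP, −1.15 to −0.88 with ctrl sh and −1.24 to −0.47 with *Lrp2* sh1. It was −0.46 to −0.24 with *Lrp2* sh2 and −0.20 to 0.35 with nSREBP2. In uninjected RPE it was −0.14, −0.55 and −1.34, so these 3 mice of a single group spanned from within the nSREBP2 range to within the GFP range. The groups nSREBP2 and GFP did not overlap in this value, nor did *Lrp2* sh2 and ctrl sh, while *Lrp2* sh1 overlapped with ctrl sh. In nSREBP2 versus GFP, *Arntl* and *Dbp* were each without overlap in opposite directions, so the gap restates their single values. In *Lrp2* sh2 versus ctrl sh, *Dbp* was without overlap and *Arntl* overlapped. Uninjected replicate 3 stood apart from the other uninjected libraries, with less *Arntl* (25.9 CPM) and more *Dbp* (65.5 CPM), *Ciart* (8.30 CPM), *Nr1d1* (84.6 CPM) and *Nr1d2* (203 CPM). It was also the shallowest library and the one uninjected library with Y-linked counts. Its RPE markers summed to 13560 CPM, against 6450 CPM in replicate 1 and 11440 CPM in replicate 2. The fibroblast markers summed to 18280 CPM in it, against 29940 CPM in each of the others. The part of depth, sex and cell makeup in its values was not tested. The difference between *Nr1d1* and *Dbp*, which are high in like phases, was 0.75 to 1.05 with nSREBP2, 0.55 to 0.92 with *Lrp2* sh2 and 0.20 to 0.43 with GFP, so these genes did not move by equal amounts.

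Across the 18 libraries, 10 pairs of members were correlated in log2 CPM, with permutation *P*-values (100000 resamples, two-sided) adjusted over the 10 pairs. *Per2* and *Per3* were the closest pair, with Pearson's r = 0.88 (permutation *P* = 1e-05, the smallest they can give, adjusted 0.0001) and Spearman's rho = 0.89 (permutation *P* = 2e-05, adjusted 0.0002). Without the 2 libraries farthest from the median of *Per2*, r was 0.84. *Dbp* rose with *Ciart* (r = 0.71, adjusted permutation *P* = 0.0065, rho = 0.72, adjusted permutation *P* = 0.00357), with *Per3* (r = 0.69, adjusted permutation *P* = 0.0065, rho = 0.70, adjusted permutation *P* = 0.00455) and with *Nr1d1* (r = 0.62, adjusted permutation *P* = 0.0131, rho = 0.62, adjusted permutation *P* = 0.0144). These 3 values of r were 0.68, 0.68 and 0.61 without the 2 libraries farthest from the median of *Dbp*. The groups differ in these genes, so values were also centred on group means. *Per2* with *Per3* then had r = 0.58 (permutation within groups *P* = 0.0272) and *Dbp* with *Nr1d1* r = 0.63 (*P* = 0.0376, permutation within groups). *Dbp* had r = 0.24 with *Ciart* and 0.30 with *Per3* within groups (permutation *P* = 0.465 and 0.531), so these pooled relations did not hold there.

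*Arntl* and *Dbp* ran opposite to each other, with r = −0.55 (permutation *P* = 0.0188, adjusted 0.0314) and rho = −0.59 (permutation *P* = 0.011, adjusted 0.0184). The value of r was −0.62 without the 2 libraries farthest from the median of *Arntl* and −0.65 within groups, where the permutation *P* was 0.0915. *Cry1* and *Cry2* rose together (r = 0.67, adjusted permutation *P* = 0.0065, rho = 0.74, adjusted permutation *P* = 0.00357), also within groups (r = 0.75, permutation *P* = 0.00242) and without the 2 farthest libraries (r = 0.64). *Nr1d1* and *Nr1d2* had r = 0.53 (adjusted permutation *P* = 0.0333) but rho = 0.45 (adjusted permutation *P* = 0.0868), r = 0.39 without the 2 farthest libraries (permutation *P* = 0.133) and r = 0.50 within groups (permutation *P* = 0.204). Without those 2 libraries and within groups the relation of *Nr1d1* with *Nr1d2* no longer passed, with r smaller but of the same sign. *Arntl* had r = −0.15 with *Clock*, 0.18 with *Cry1* and −0.12 with *Nr1d1* (adjusted permutation *P* = 0.625, 0.603 and 0.633). The rho of these 3 pairs was 0.001, 0.18 and −0.24.

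**Figure D4:**
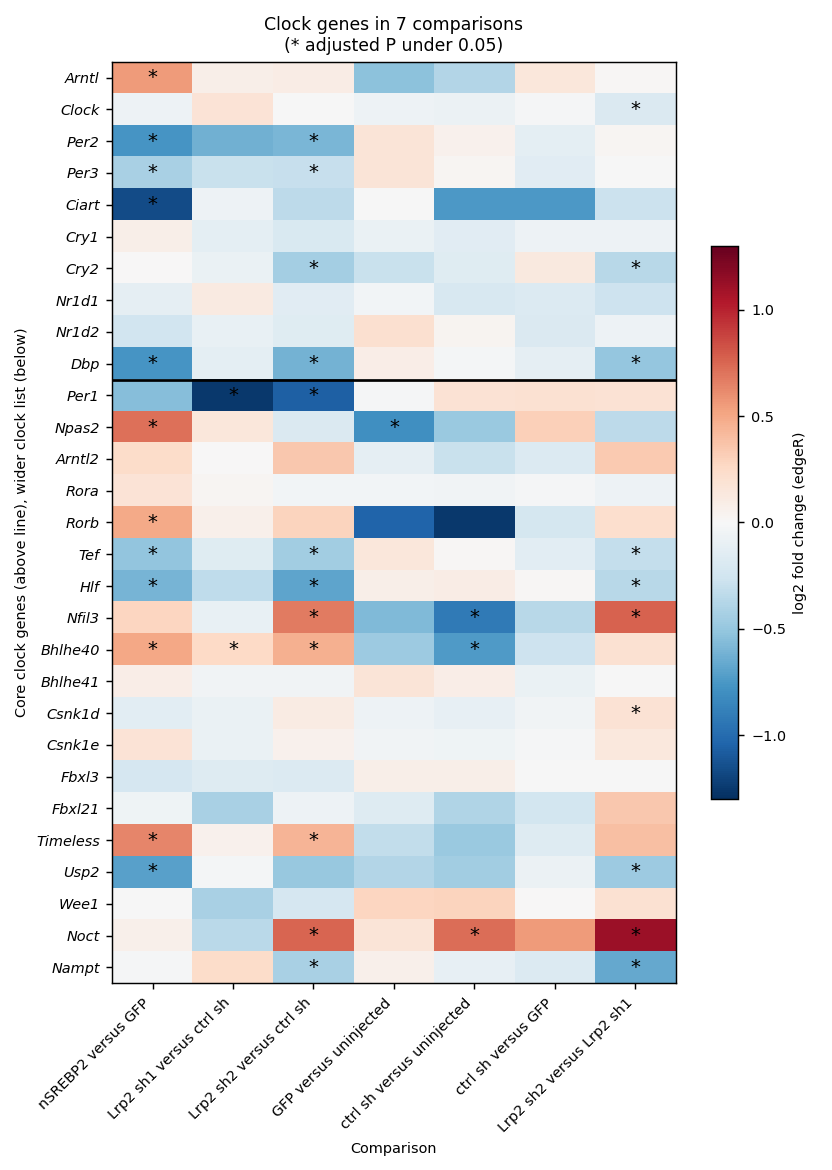
Log2 fold change (edgeR, color scale, red higher and blue lower in the group named first) of the 10 core clock genes (above the line) and genes of the wider list (below it) in 7 comparisons of 3 libraries against 3. A star marks an adjusted *P* under 0.05, and stars on *Dbp*, *Tef* and *Hlf* stand together in nSREBP2 versus GFP, *Lrp2* sh2 versus ctrl sh and *Lrp2* sh2 versus *Lrp2* sh1.

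As the member with the lowest adjusted *P* in the test over all groups, *Dbp* was set against the other clock genes and against all genes by Pearson's r of log2 CPM over the 18 libraries, which share their depth and group structure. These values are a description. Among the 29 other clock genes, *Tef* (r = 0.93) and *Hlf* (r = 0.86), the relatives of *Dbp*, were most like it. *Arntl* (r = −0.55), *Csnk1e* (−0.49) and *Bhlhe40* (−0.48) were most opposite. Centred on group means, r was 0.73 for *Tef* but 0.24 for *Hlf*. Outside the clock lists, among the 15006 genes whose mean log2 CPM reached 1, the most like were *Wipf2* (r = 0.94), *Tspyl4* (0.93), *Gsx2* (0.93), *Trpm3* (0.92) and *Tspan5* (0.91). The most opposite were *Anxa3* (−0.93), *P2ry14* (−0.91), *Bicc1* (−0.91), *Smim3* (−0.91) and *Slitrk2* (−0.90). Within groups the most like were *Cdk16* (0.93), *Cltb* (0.93), *Ogdh* (0.92), *Gm15675* (0.92) and *Wipf2* (0.91), and the most opposite were *Cdk17* (−0.87), *E230016M11Rik* (−0.87), *Ppfia2* (−0.86), *5430430B14Rik* (−0.86) and *Mrvi1* (−0.84).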

How the data were processed

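RNA was extracted from mouse RPE with Trizol, and libraries were made after rRNA depletion with a directional kit. The authors mapped reads to GRCm38 and deposited raw counts per gene made with STAR, with the annotation and the use of strand not given in the sources used here. All 18 libraries were used, 3 per group, with 8921885 to 13696934 counts, and a count of 0 allows up to 3 counts (0.218 to 0.323 CPM, counting error only).

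Counts were fitted in R 4.3.3 with edgeR 4.0.16 (filterByExpr, TMM, glmQLFit and glmQLFTest), per pair of groups and, for tests over all groups and for differences of effects, over all 18 libraries. The effect of each choice was checked with DESeq2 1.42.0, other size factors, no filter, at least 10 counts in every library, a replicate block, sex as a term, and each library left out. CPM used TMM factors, and log2 CPM had a prior count of 2. On counts simulated with 2-fold and 4-fold changes, the pairwise fit recovered 188 of 200 changed genes, with 20 false calls, which is more than nominal. The fit over all groups recovered 187 of 200, with 7 false calls. Apart from *Ciart*, the members that were called changed less than 2-fold, and the recovery of such changes was not simulated. Correlations used 100000 permutations in scipy 1.17.1. Promoter windows were RefSeq sequences of 300 bases, and gene positions and exon lengths came from GENCODE M21.

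All members and, from a wider list of 20 clock genes, those that passed in at least 1 of the 3 comparisons of the study are named, with the manipulated genes and the 5 genes at each end of the likeness with *Dbp*. A gene of the wider list is counted but not reported here by name. *Csnk1d* and *Csnk1e* were named after their values were seen. The members and lists were chosen with earlier results of these data known. Eyes were pooled per mouse, so replicates were taken as separate mice. Deviations from group means were correlated between libraries of the same replicate number. In ctrl sh versus GFP the values were 0.248, 0.122 and 0.296 for numbers 1, 2 and 3, and the block changed no count there. For *Lrp2* sh2 versus *Lrp2* sh1 they were −0.031, 0.298 and 0.289. Libraries of unlike numbers were not compared, so these values cannot show whether the numbers mark pairs.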

Additional observations from a re-analysis of the deposited data

Results flagged for a closer look

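For 3 core clock genes the effect of nSREBP2 differed from that of a hairpin against *Lrp2* by a test of the difference itself (edgeR, interaction term over 18 libraries). The log2FC of *Ciart* was −1.16 in nSREBP2 versus GFP and −0.07 in *Lrp2* sh1 versus ctrl sh, a difference of −1.10 (SE 0.31, adjusted *P* = 0.0314). The controls of the 2 comparisons were unlike in *Ciart*, with 7.08 ± 0.342 CPM for GFP and 4.25 ± 1.14 CPM for ctrl sh (SD, n = 3). The nSREBP2 libraries (2.73 to 3.66 CPM) and the *Lrp2* sh1 libraries (3.22 to 5.14 CPM) overlapped. The log2FC of *Dbp* was −0.77 and −0.12 in the same comparisons, a difference of −0.66 (SE 0.18, adjusted *P* = 0.0276). The log2FC of *Cry2* was 0.004 in nSREBP2 versus GFP and −0.44 in *Lrp2* sh2 versus ctrl sh, a difference of 0.45 (SE 0.13, adjusted *P* = 0.044). Against *Lrp2* sh1 these were 2 of the 10 members, where 9.75% of all genes passed, and against *Lrp2* sh2 1 of the 10, where 5.63% passed. With each of the 12 libraries of a comparison left out in turn, the difference passed in 6 fits for *Ciart*, 4 for *Dbp* and 3 for *Cry2*, with values of −1.252 to −0.876, −0.73 to −0.565 and 0.374 to 0.524.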

How the results depend on the processing

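Each count of core clock genes that passed was recomputed under the other settings. With the limit of the study on log2FC, 1 passed in nSREBP2 versus GFP and 0 in *Lrp2* sh2 versus ctrl sh and in *Lrp2* sh2 versus *Lrp2* sh1. In *Lrp2* sh1 versus ctrl sh, 1 passed under DESeq2, the replicate block, the fit of all 18 libraries and sex as a term, and 2 without a filter. In GFP versus uninjected, 1 passed without a filter and in the fit of all 18 libraries, and 2 with sex as a term. In ctrl sh versus uninjected, 1 passed in each of the last-named fits, and with sex as a term 1 passed in *Lrp2* sh2 versus *Lrp2* sh1. With 1 library left out in turn, counts were 5 to 6 (nSREBP2 versus GFP), 0 to 1 (*Lrp2* sh1 versus ctrl sh), 2 to 4 (*Lrp2* sh2 versus ctrl sh), 0 to 1 (GFP versus uninjected), 2 to 3 (*Lrp2* sh2 versus *Lrp2* sh1) and 6 to 8 (any difference among groups), and differences of effects numbered 0 to 2 against *Lrp2* sh1 and 0 to 1 against *Lrp2* sh2. Outside ctrl sh versus GFP, the correlations of deviations by replicate number ran from −0.362 to 0.298, and whether the numbers mark pairs was not tested. The replicate block gave 5 calls in nSREBP2 versus GFP, 3 in *Lrp2* sh2 versus ctrl sh, 2 in *Lrp2* sh2 versus *Lrp2* sh1 and 7 among all groups. For differences of effects from *Lrp2* sh1 and *Lrp2* sh2 it gave 2 and 0. Signs turned for small values only. The log2FC of *Cry2* in nSREBP2 versus GFP was −0.001 in the fit of all 18 libraries and −0.044 to 0.082 with 1 library left out. With *Lrp2* sh1, leaving out 1 library gave −0.034 to 0.186 for *Arntl*, −0.285 to 0.087 for *Ciart* and −0.072 to 0.039 for *Srebf2*, and with *Lrp2* sh2 it gave −0.058 to 0.015 for *Clock*. The correlation of *Arntl* with *Clock* was 0.137 without the 2 farthest libraries, and that of *Arntl* with *Cry1* was −0.156 within groups. Within groups r no longer passed for *Arntl* with *Dbp* (−0.648), *Dbp* with *Per3* (0.297), *Dbp* with *Ciart* (0.24) and *Nr1d1* with *Nr1d2* (0.5), the last also failing without the 2 farthest libraries (0.394). Of the values for single genes, 1344 kept their direction and side of the threshold, 113 lost and 52 gained a call, and 11 turned sign. The cause of these changes was not tested. With 3 mice per group and 29 to 93 counts, small changes of *Ciart* were not detectable.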
